A study of Mus musculus with 2 samples.

Results

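The genes described here encode the semaphorins, ephrins, Slits and netrins and their receptors, the main families of guidance cues. They were chosen by symbol from the deposited table, 64 of 24862 listed genes. There were 20 semaphorins, 2 neuropilins, 9 plexins, 8 ephrins, 13 Eph receptors, 3 Slits, Robo1 and Robo2, 4 netrins and 3 Unc5 receptors. Robo4, Ntng1, Ntng2 and Unc5cl carry related symbols that the choice did not take in, and they stand among the other pathway genes. RNA was sequenced from GFP+ cells of the stromal vascular fraction of inguinal fat, the cells other than adipocytes that collagenase frees from subcutaneous fat. One library came from Sox9 PreASKO mice and one from Sox9 floxed mice, in each case males of 3 weeks that had received doxycycline on postnatal day 1. GFP+ cells are equated with Pref-1+ cells by the series' design text, where Pref-1, encoded by Dlk1, marks early fat precursors. The labels do not name the promoter that drives the recombinase or the GFP reporter, nor do they say whether the floxed mice carry either. Cells of several mice were pooled for a library. The design text states a pool of 6, which could be the number for each genotype or for both.

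Guidance cues are ligands that steer growing axons, migrating cells and vessel sprouts by attraction or repulsion. Class 3 semaphorins are secreted and act through neuropilins paired with plexins, while the other vertebrate classes are bound to the membrane and bind plexins directly. Ephrins are held on the cell surface and signal to Eph receptor tyrosine kinases on a neighbouring cell, Slits repel through Robo receptors, and netrins act through neogenin, Dcc and Unc5 receptors. In fat, stromal cells, vessels, nerves and immune cells can each carry parts of these systems.

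The libraries held 29172653 counts for PreASKO and 37705236 for floxed. Levels are in CPM, counts scaled to a common library total, and a ratio is PreASKO over floxed CPM. With 1 library per genotype there was no test between genotypes, and the intervals in parentheses are exact 95% intervals of counting error only. Sox9 itself stood at 2.50 CPM in the PreASKO library (73 counts) and 6.05 CPM in the floxed library (228 counts), a ratio of 0.414 (0.313 to 0.541). Dlk1, the gene of Pref-1, stood at 24.0 CPM in PreASKO and 28.2 CPM in floxed cells, a ratio of 0.850 (0.772 to 0.936). Of 12 stromal precursor markers, 12 were lower in PreASKO, with ratios from 0.275 to 0.850 and a summed level of 18811 CPM in PreASKO and 32950 CPM in floxed cells, and none was at 0. Of 9 measured macrophage markers, 9 were higher, with ratios from 1.27 to 1.69 and a summed level of 17544 CPM in PreASKO and 11815 CPM in floxed cells, and none was at 0. Of 9 mesothelial markers, 9 were lower, with a summed level of 4.94 CPM in PreASKO and 177 CPM in floxed cells, and Upk1b was at 0 in PreASKO. The summed ratio was 1.09 (1.08 to 1.11) for 9 blood endothelial markers, 1.33 (1.31 to 1.36) for 4 lymphatic endothelial markers, 0.661 (0.645 to 0.677) for 8 mural markers, 0.723 (0.664 to 0.787) for 7 Schwann cell markers, 6.45 (5.85 to 7.12) for 6 neutrophil markers, 1.36 (1.27 to 1.47) for 5 mast cell markers, 1.14 (1.08 to 1.20) for 8 lymphocyte markers and 0.787 (0.777 to 0.798) for 5 adipocyte markers. Some of these lists split, with 5 markers higher and 4 lower for blood endothelium and 2 higher and 2 lower for lymphatic endothelium. The split was 1 higher and 7 lower for mural, 3 and 4 for Schwann cell and 5 and 3 for lymphocyte markers. Lyve1 alone made up 748 of the 832 CPM of the lymphatic endothelial sum in PreASKO. Fabp4, with a ratio of 0.870, made up 966 of the 1211 CPM of the adipocyte sum in PreASKO. Adipoq, Cidec and Plin1 had ratios of 0.537, 0.557 and 0.632. Lep, with 25 counts in PreASKO and 7 in floxed cells, went the other way. In a bulk library, fewer cells of a type and less RNA per cell cannot be told apart.

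More guidance genes were lower than higher in PreASKO, among them 6 of 7 class 3 semaphorins with intervals below 1, most Eph receptors, Robo1 and Robo2. Sema4a, Plxnb2 and Plxnd1, which had the highest levels per kb of exon among semaphorins and plexins, were higher. Of the 64 genes, 56 had 40 or more counts over both libraries. Of these, 15 were more than 2-fold lower in PreASKO, or 26.8%, beside 12.1% of all 16068 genes with as many counts. None of the 56 (0) was more than 2-fold higher, beside 6.29% of all genes. Ratios were under 1 for 39 of the 56, or 69.6%, against 52.2% of all genes. The median log2 ratio was -0.40 over the 56 genes and -0.03 over all genes. With at least 200 counts over both libraries, 7 of 45 guidance genes were more than 2-fold lower, or 15.6%, against 5.81% of all genes. The 2-fold limit cut between close neighbours, since Efna2 had a ratio of 0.497 and Robo2 one of 0.503, while Efna1 reached 1.99. With 1 CPM added to each level, 8 of the 15 stayed more than 2-fold lower, and Slit2, Unc5c, Efna2, Efna5, Ntn5, Sema3g and Sema4g did not. The 8 genes were 14.3% of the 56, against 6.95% of all genes under that setting. The stromal precursor markers had a summed ratio of 0.571, with single markers from 0.275 to 0.850. Of the 56 guidance genes, 20 had a ratio below 0.571, and the share of all genes below it was not counted.

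**Figure D1:**
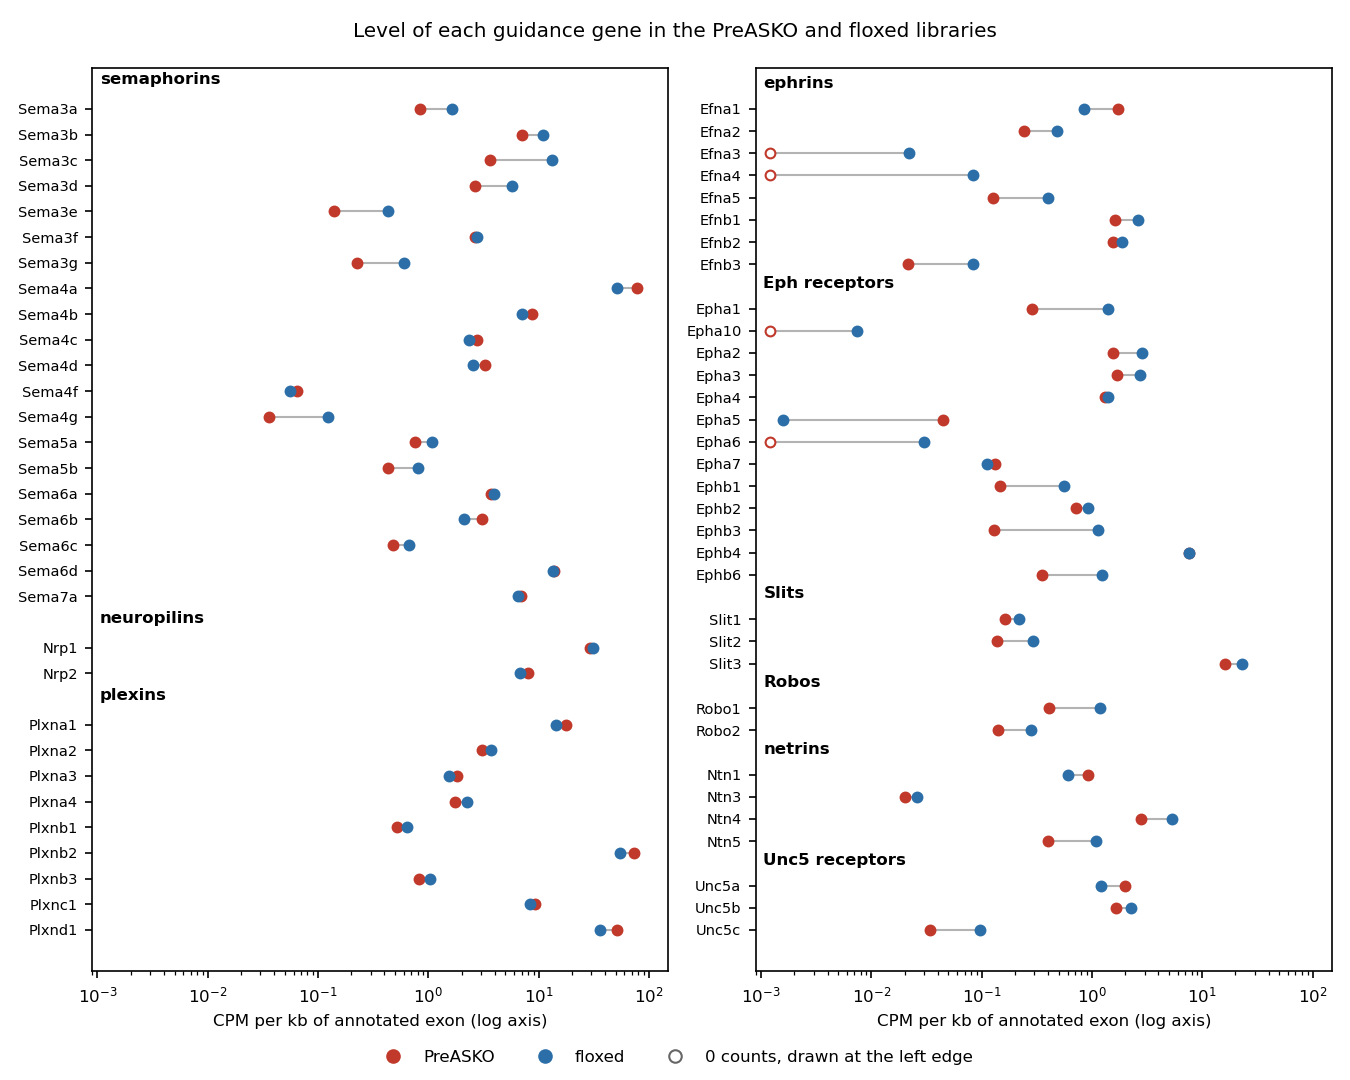
Level of each of the 64 guidance genes in the PreASKO library (red) and the floxed library (blue), in CPM per kb of annotated exon on a log axis, with 1 library per genotype and no error bar. Red points lie left of blue ones for all 7 class 3 semaphorins and for Robo1, Robo2 and the Slits, and right of them for Sema4a, Plxnb2 and Plxnd1.

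The secreted class 3 semaphorins were lower, with the interval of Sema3f alone including 1. All 7 had 40 or more counts and a ratio under 1, beside 52.2% of all genes. Of the 7, 4 were more than 2-fold lower in PreASKO, or 57.1%, beside 12.1% of all genes. Their summed level was 110.4 CPM in PreASKO and 239.6 CPM in floxed cells, a ratio of 0.461 (0.442 to 0.480). The sequences upstream of 5 of them are shown because these genes share a direction and because Sox9 is the deleted factor. Each is the 250 bases before an annotated start in RefSeq (GRCm38.p6), read 5′ to 3′ on the strand of the gene, which is the plus strand in each case. Capitals mark ACAAT, the core that SOX factors bind, or TGACAG, a core bound by Meis factors, on either strand, and the cores do not overlap in these windows.
Sema3a, chr5:13396534-13396783: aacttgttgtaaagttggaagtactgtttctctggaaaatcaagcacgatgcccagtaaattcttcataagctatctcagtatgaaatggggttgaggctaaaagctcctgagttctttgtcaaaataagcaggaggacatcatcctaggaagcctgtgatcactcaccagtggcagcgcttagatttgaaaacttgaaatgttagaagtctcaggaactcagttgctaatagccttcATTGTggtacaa
Sema3c, chr5:17574566-17574815: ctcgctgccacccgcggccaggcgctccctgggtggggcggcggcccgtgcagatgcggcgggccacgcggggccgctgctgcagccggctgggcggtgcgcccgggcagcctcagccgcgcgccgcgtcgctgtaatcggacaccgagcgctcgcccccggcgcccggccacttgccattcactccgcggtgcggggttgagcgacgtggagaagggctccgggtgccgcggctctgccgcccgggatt
Sema3d, chr5:12382916-12383165: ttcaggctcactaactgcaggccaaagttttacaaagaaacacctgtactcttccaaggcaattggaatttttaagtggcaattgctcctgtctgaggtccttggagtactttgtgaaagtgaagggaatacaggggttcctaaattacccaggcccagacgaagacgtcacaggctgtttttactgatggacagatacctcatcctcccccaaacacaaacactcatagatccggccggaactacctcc
Sema3e, chr5:14025026-14025275: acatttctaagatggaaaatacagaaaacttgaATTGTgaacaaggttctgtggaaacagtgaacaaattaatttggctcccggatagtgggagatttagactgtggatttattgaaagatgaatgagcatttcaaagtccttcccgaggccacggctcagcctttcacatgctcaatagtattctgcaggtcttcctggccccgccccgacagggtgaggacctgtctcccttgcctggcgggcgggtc
Sema3g, chr14:31217623-31217872: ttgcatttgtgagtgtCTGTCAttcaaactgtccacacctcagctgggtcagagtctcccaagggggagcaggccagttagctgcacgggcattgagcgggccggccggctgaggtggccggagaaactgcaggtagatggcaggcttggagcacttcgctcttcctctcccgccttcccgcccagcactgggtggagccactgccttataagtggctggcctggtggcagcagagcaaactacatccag
Sema3a and Sema3e held 1 ACAAT core each on the minus strand, and Sema3g held 1 TGACAG core on the minus strand. The windows of Sema3c and Sema3d held neither. Windows were available for 56 of the guidance genes, 72 windows in all, and ACAAT was in 16.7% of these, against 27.7% of all 32851 windows. TGACAG was in 15.3% of the guidance gene windows, against 15.9% of all. The guidance gene windows had a median GC content of 64.4%, against 52.4% for all windows, and among the 5 windows printed GC content ran from 40.8% for Sema3a to 78.4% for Sema3c. A match is only a description of the letters and not a bound site.

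Sema3c is a ligand of both neuropilins that is needed for the outflow tract of the heart. It stood at 25.9 CPM in the PreASKO library (755 counts) and 94.0 CPM in the floxed library (3545 counts), a ratio of 0.275 (0.254 to 0.298), so the PreASKO library was 3.63-fold lower (3.36 to 3.93). Sema3d, which acts on neural crest cells and on endothelium, stood at 22.8 CPM in the PreASKO library (666 counts) and 48.9 CPM in the floxed library (1844 counts), a ratio of 0.467 (0.427 to 0.510). Both lay past the 2-fold limit with their counts all in the raw column, so no repeat-distributed reads entered. Sema3e, unusual in binding Plxnd1 without a neuropilin, stood at 1.30 CPM in the PreASKO library (38 counts) and 4.03 CPM in the floxed library (152 counts), a ratio of 0.323 (0.220 to 0.464). Sema3g, a Nrp2 ligand of vessels, stood at 1.03 CPM in the PreASKO library (30 counts) and 2.76 CPM in the floxed library (104 counts), a ratio of 0.373 (0.240 to 0.564). Sema3e and Sema3g were scarce, and the upper limits of the Sema3d and Sema3g intervals lay inside the 2-fold limit.

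The other class 3 members were lower by less. Sema3a, the classical repellent ligand of Nrp1, stood at 11.6 CPM in the PreASKO library (339 counts) and 22.6 CPM in the floxed library (853 counts), a ratio of 0.514 (0.452 to 0.583). Sema3b, a neuropilin ligand known as a tumour suppressor in human cells, stood at 34.0 CPM in the PreASKO library (992 counts) and 52.8 CPM in the floxed library (1992 counts), a ratio of 0.644 (0.596 to 0.695). Sema3f, the repellent that prefers Nrp2, stood at 13.7 CPM in the PreASKO library (400 counts) and 14.5 CPM in the floxed library (546 counts), and its ratio of 0.947 (0.830 to 1.08) included 1. Per kb of exon, Sema3b had the highest level of the class in PreASKO, at 7.12 CPM per kb against 3.62 for Sema3c, while in floxed cells Sema3c, at 13.2 CPM per kb, stood above Sema3b, at 11.1. The 12 stromal precursor markers were lower alongside, with a summed ratio of 0.571 (0.569 to 0.573), and the 9 mesothelial markers with one of 0.0280 (0.0235 to 0.0330). Their part in the class 3 values was not tested.

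Sema3a, Sema3c, Sema3d and Sema3e share a stretch of chromosome 5. Their genes lie between 12383161 and 17730268 (GRCm38), 5.35 Mb in all. Sema3b and Sema3f lie together on chromosome 9 between 107597674 and 107710475, and Sema3g lies on chromosome 14 from 31217873 to 31230352. The chromosome 5 genes had ratios from 0.275 to 0.514, beside 0.644 and 0.947 for the chromosome 9 pair and 0.373 for Sema3g, which lay within the chromosome 5 range.

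The membrane-bound semaphorins showed no such shared direction. Over classes 4 to 7, 12 of 13 genes had 40 or more counts, of which 7 were higher and 5 lower, with a median log2 ratio of 0.06. Class 4 was higher in sum, at 507 CPM in PreASKO and 351 CPM in floxed cells, a ratio of 1.45 (1.41 to 1.48). Most of that sum was Sema4a, a ligand of immune cells that costimulates T cells. Sema4a stood at 419.6 CPM in the PreASKO library (12240 counts) and 279 CPM in the floxed library (10538 counts), a ratio of 1.50 (1.46 to 1.54), and it had the highest level per kb of exon among the semaphorins, 77.6 CPM per kb in PreASKO and 51.7 in floxed cells. The 9 measured macrophage markers had a summed ratio of 1.48 (1.48 to 1.49), and their part in the class 4 value was not tested.

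The other class 4 genes were mostly higher by smaller steps. Sema4b had a ratio of 1.23 (1.14 to 1.32), at 48.9 CPM in PreASKO and 39.8 CPM in floxed cells. Sema4c, a Plxnb2 ligand, had a ratio of 1.19 (1.03 to 1.38), at 12.8 CPM in PreASKO and 10.7 CPM in floxed cells. Sema4d, the ligand of Plxnb1 and of the B cell receptor Cd72, had a ratio of 1.29 (1.16 to 1.43), at 25.2 CPM in PreASKO and 19.5 CPM in floxed cells. Sema4g went the other way, at 0.309 CPM in the PreASKO library (9 counts) and 1.06 CPM in the floxed library (40 counts), a ratio of 0.291 (0.124 to 0.609) on few counts, and Sema4f, with 10 counts in PreASKO and 11 in floxed cells, was too scarce to place.

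Classes 5 to 7 held both directions. Sema5a and Sema5b, transmembrane ligands with thrombospondin repeats, were lower, at 14.0 CPM in PreASKO and 20.2 CPM in floxed cells for Sema5a and 3.05 CPM in PreASKO and 5.76 CPM in floxed cells for Sema5b, with ratios of 0.696 (0.615 to 0.785) and 0.530 (0.409 to 0.681). Sema6d, a Plxna1 ligand with the highest level per kb of its class, stood at 146 CPM in the PreASKO library (4263 counts) and 144 CPM in the floxed library (5425 counts), and its ratio of 1.02 (0.975 to 1.06) included 1. Sema6a had 32.4 CPM in PreASKO and 34.4 CPM in floxed cells, with a ratio of 0.940 (0.863 to 1.02) that also included 1. Sema6b was higher, with a ratio of 1.47 (1.26 to 1.72), at 12.2 CPM in PreASKO and 8.27 CPM in floxed cells, whereas Sema6c was lower, with a ratio of 0.707 (0.533 to 0.931), at 2.81 CPM in PreASKO and 3.98 CPM in floxed cells. Sema7a, the lipid-anchored ligand of Plxnc1 and of integrins, had 22.7 CPM in PreASKO and 21.3 CPM in floxed cells, a ratio of 1.07 (0.960 to 1.18).

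**Figure D2:**
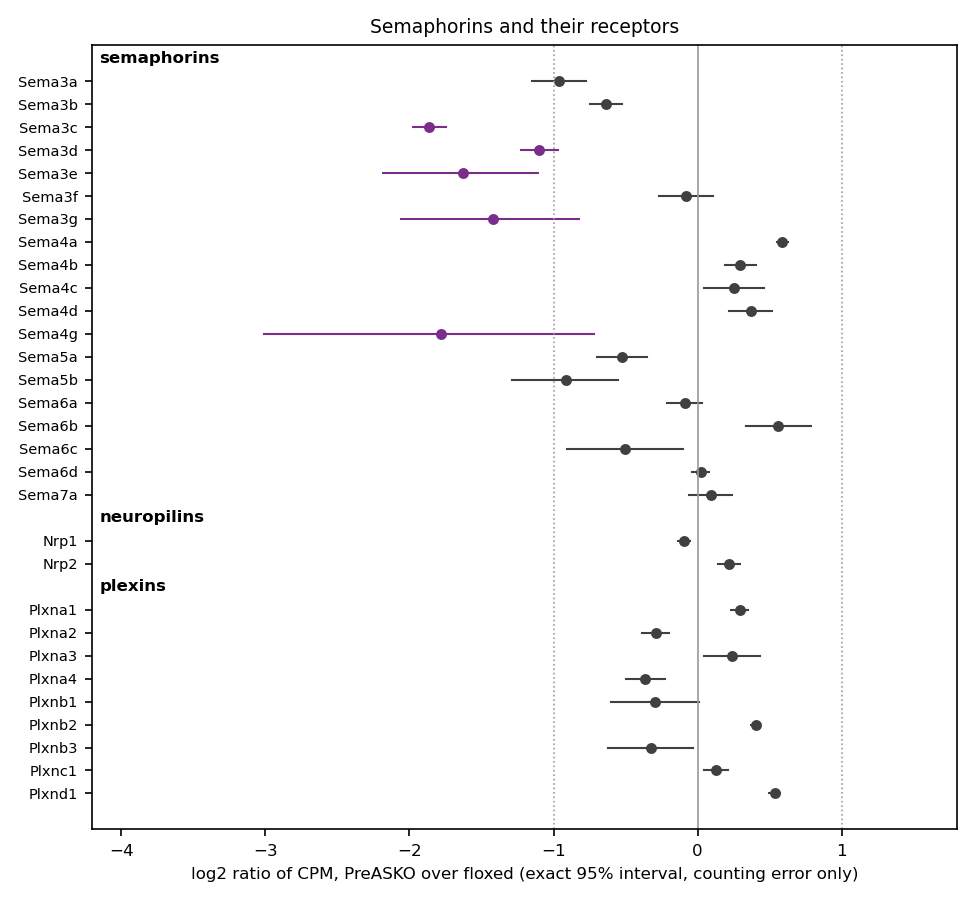
log2 ratio of CPM, PreASKO over floxed, for the 30 semaphorin, neuropilin and plexin genes with 40 or more counts over both libraries. Lines are exact 95% intervals of counting error, dotted lines mark the 2-fold limit and purple marks the 5 genes past it, 4 of them class 3 semaphorins, whereas all 9 plexins lie inside it. The 5 genes, all lower, are 16.7% of the 30, beside 12.1% of all genes.

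Their receptors differed little, and the abundant plexins were higher. Nrp1, the co-receptor for Sema3a and for VEGF, stood at 284 CPM in the PreASKO library (8288 counts) and 304 CPM in the floxed library (11454 counts), a ratio of 0.935 (0.909 to 0.962). Nrp2, the co-receptor for Sema3f and for lymphatic VEGF signals, stood at 94.3 CPM in the PreASKO library (2751 counts) and 81.0 CPM in the floxed library (3054 counts), a ratio of 1.16 (1.11 to 1.23). Summed, the neuropilins were at 378 CPM in PreASKO and 385 CPM in floxed cells, and the ratio of 0.983 (0.959 to 1.01) included 1. The class 3 ligands and their co-receptors thus had ratios of 0.461 and 0.983 in the same libraries. These ratios rest in part on different kinds of count. All counts of Nrp1 and Nrp2 were repeat-distributed, while those of Sema3c and Sema3d were all raw.

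Of 9 plexins, 5 were higher and 4 lower in PreASKO, with none past 2-fold, and their summed level was 1277 CPM in PreASKO and 1006 CPM in floxed cells, a ratio of 1.27 (1.25 to 1.29). Plxnb2, a receptor of class 4 semaphorins, stood at 562 CPM in the PreASKO library (16397 counts) and 425 CPM in the floxed library (16017 counts), a ratio of 1.32 (1.29 to 1.35). Plxnd1, the Sema3e receptor of endothelium, stood at 377 CPM in the PreASKO library (11008 counts) and 260.4 CPM in the floxed library (9819 counts), a ratio of 1.45 (1.41 to 1.49). These had the highest levels per kb of exon among the plexins, 72.8 and 51.7 CPM per kb in PreASKO and 55.0 and 35.7 in floxed cells. Repeat-distributed counts made up 97.6% of the floxed counts of Plxnd1, and the few raw counts alone gave a log2 ratio of -0.0003. Plxna1, a co-receptor partner of the neuropilins, stood at 159 CPM in the PreASKO library (4636 counts) and 129.9 CPM in the floxed library (4897 counts), a ratio of 1.22 (1.18 to 1.27), and 10.7% of its exon bases overlap those of Gm26811 on the opposite strand.

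Among the remaining plexins, Plxnc1 had a ratio of 1.09 (1.03 to 1.16) and Plxna3 one of 1.18 (1.03 to 1.35), while Plxna2 had 0.817 (0.766 to 0.871), Plxna4 0.778 (0.708 to 0.855) and Plxnb3 0.799 (0.651 to 0.979). For Plxnb1 the ratio of 0.815 (0.659 to 1.01) included 1. Some marker lists had summed ratios above 1 alongside, 1.48 (1.48 to 1.49) for 9 macrophage markers and 1.36 (1.27 to 1.47) for 5 mast cell markers. The 4 lymphatic endothelial markers had a summed ratio of 1.33 (1.31 to 1.36), but the list split. Lyve1, at 748 of the 832 CPM of that sum in PreASKO, had a ratio of 1.37 and Prox1 one of 1.44. Pdpn and Flt4 were lower, with ratios of 0.384 and 0.831. No macrophage marker was at 0 in either library. Their part in the plexin values was not tested. The whole semaphorin, neuropilin and plexin system was slightly higher in sum, at 2506 CPM in PreASKO and 2219 CPM in floxed cells, a ratio of 1.13 (1.12 to 1.14), but raw counts alone turned the log2 ratio of the sum from 0.18 to -0.34, because Plxnb2, Nrp1 and Nrp2 had no raw counts and Sema4a and Plxnd1 few.

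Eph receptors and ephrins were lower in most cases, with some of the widest ratios of all guidance genes. In sum the system stood at 104 CPM in PreASKO and 145 CPM in floxed cells, a ratio of 0.716 (0.685 to 0.749). Of 8 ephrins, 5 had 40 or more counts. Efnb2, the arterial ligand of Ephb4, stood at 10.7 CPM in the PreASKO library (312 counts) and 12.9 CPM in the floxed library (486 counts), a ratio of 0.830 (0.717 to 0.958). Efnb1, an X-linked ligand of craniofacial boundaries, stood at 5.62 CPM in the PreASKO library (164 counts) and 9.02 CPM in the floxed library (340 counts), a ratio of 0.623 (0.514 to 0.753). Both of these ephrin-B ligands were thus lower by less than 2-fold.

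The lipid-anchored ephrin-A ligands were scarce and went both ways. Efna1, a cytokine-inducible ligand of Epha2, was the member closest to 2-fold higher, at 3.12 CPM in the PreASKO library (91 counts) and 1.56 CPM in the floxed library (59 counts), a ratio of 1.99 (1.42 to 2.82). Efna5 stood at 0.514 CPM in the PreASKO library (15 counts) and 1.62 CPM in the floxed library (61 counts), a ratio of 0.318 (0.168 to 0.566), and Efna2 at 0.514 CPM in the PreASKO library (15 counts) and 1.03 CPM in the floxed library (39 counts), a ratio of 0.497 (0.255 to 0.922). The remaining ephrins were near the floor. Efna3 had 0 counts in PreASKO and 2 in floxed cells, Efna4 had 0 in PreASKO and 5 in floxed cells, and Efnb3 had 2 in PreASKO and 10 in floxed cells.

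Of 13 Eph receptors, 10 had 40 or more counts, 9 of which were lower and 1 higher in PreASKO. The share lower was 90%, beside 52.2% of all genes. The EphB receptors were the more uneven group, with 3 of 5 more than 2-fold lower, or 60%, beside 12.1% of all genes. Ephb3, a receptor known from the intestinal crypt, had the lowest ratio of the 56 guidance genes. It stood at 0.857 CPM in the PreASKO library (25 counts) and 7.48 CPM in the floxed library (282 counts), which was 8.73-fold lower (5.79 to 13.7). Ephb1 stood at 1.03 CPM in the PreASKO library (30 counts) and 3.93 CPM in the floxed library (148 counts), a ratio of 0.262 (0.171 to 0.390), and Ephb6, a receptor without kinase activity, at 1.34 CPM in the PreASKO library (39 counts) and 4.61 CPM in the floxed library (174 counts), a ratio of 0.290 (0.199 to 0.412). Ephb4, the venous receptor for Efnb2, stood at 35.0 CPM in the PreASKO library (1020 counts) and 35.5 CPM in the floxed library (1339 counts), and its ratio of 0.985 (0.907 to 1.07) included 1, with a sign that turned under other scalings. Ephb2 lay between, at 9.05 CPM in PreASKO and 11.5 CPM in floxed cells, a ratio of 0.788 (0.674 to 0.920). Scarce genes moved most when 1 CPM was added to each level, which took the log2 ratio of Ephb3 to -2.19 in place of -3.13. The EphB gene with the highest level per kb of exon was thus within counting error of equal levels, while the other 4 were lower.

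Among EphA receptors, Epha1, a receptor of epithelia, stood at 1.13 CPM in the PreASKO library (33 counts) and 5.49 CPM in the floxed library (207 counts), a ratio of 0.206 (0.138 to 0.299), and 6.01% of its exon bases overlap those of Zyx on the opposite strand. Epha3, a receptor of mesenchymal cells, stood at 14.7 CPM in the PreASKO library (429 counts) and 23.7 CPM in the floxed library (893 counts), a ratio of 0.621 (0.552 to 0.697). Epha2, a receptor of epithelium and endothelium, stood at 7.23 CPM in PreASKO and 13.4 CPM in floxed cells, a ratio of 0.541 (0.459 to 0.637). Epha4 stood at 10.7 CPM in the PreASKO library (311 counts) and 11.1 CPM in the floxed library (420 counts), and its ratio of 0.957 (0.824 to 1.11) included 1, as did that of Epha7, 1.17 (0.734 to 1.86). Epha5, with 22 counts in PreASKO and 1 in floxed cells, all of them repeat-distributed, was under the 40 counts asked of a gene. So were Epha6, with 0 counts in PreASKO and 6 in floxed cells, and Epha10, with 0 in PreASKO and 2 in floxed cells. The 9 mesothelial markers had a summed ratio of 0.0280 (0.0235 to 0.0330), and the 4 epithelial markers one of 0.0698 (0.0401 to 0.113). The epithelial sum rests on Krt14, with 1 count in PreASKO and 279 in floxed cells. Cdh1 had 1 count in PreASKO and 18 in floxed cells, Epcam 12 in PreASKO and 17 in floxed cells, and Krt5 3 in PreASKO and 1 in floxed cells. Their part in the Eph values was not tested.

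The 3 Slits, Robo1 and Robo2 had ratios under 1, and that of Slit1 was within counting error of 1. In sum they stood at 112 CPM in PreASKO and 172 CPM in floxed cells, a ratio of 0.649 (0.622 to 0.677). Slit3, a Slit of mesenchymal tissues, made up most of that sum, at 98.0 CPM in the PreASKO library (2859 counts) and 139 CPM in the floxed library (5246 counts), a ratio of 0.704 (0.673 to 0.737). Slit2, the midline repellent, stood at 3.53 CPM in the PreASKO library (103 counts) and 7.35 CPM in the floxed library (277 counts), a ratio of 0.481 (0.380 to 0.605). Repeat-distributed counts made up 88.3% of its PreASKO and 69.0% of its floxed counts. Alone they gave a log2 ratio of -0.74, inside the 2-fold limit, and raw counts alone gave -2.43. Slit1, a Slit of neurons, stood at 0.960 CPM in the PreASKO library (28 counts) and 1.30 CPM in the floxed library (49 counts), a ratio of 0.739 (0.447 to 1.20) that included 1. The receptors differed by more than Slit3 did, but the kinds of count differed too. All counts of Robo1 and Robo2 were repeat-distributed, and all counts of Slit3 were raw. Robo1, a receptor of the Slits, stood at 6.68 CPM in the PreASKO library (195 counts) and 19.4 CPM in the floxed library (730 counts), a ratio of 0.345 (0.293 to 0.405). Robo2, its neighbour on chromosome 16, stood at 2.40 CPM in the PreASKO library (70 counts) and 4.77 CPM in the floxed library (180 counts), a ratio of 0.503 (0.376 to 0.666). Without Slit3 the summed ratio of the system was 0.414 (0.369 to 0.464).

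Netrins and Unc5 receptors split. Ntn1, the netrin of commissural axons, was higher, at 5.83 CPM in the PreASKO library (170 counts) and 3.77 CPM in the floxed library (142 counts), a ratio of 1.55 (1.23 to 1.95). Ntn4, a netrin of basement membranes, was lower, at 10.3 CPM in the PreASKO library (301 counts) and 20.0 CPM in the floxed library (755 counts), a ratio of 0.515 (0.449 to 0.590). Ntn5 stood at 0.891 CPM in the PreASKO library (26 counts) and 2.39 CPM in the floxed library (90 counts), a ratio of 0.373 (0.232 to 0.583), and 23.4% of its exon bases overlap those of Sec1 on the opposite strand, while Ntn3, with 3 counts in PreASKO and 5 in floxed cells, was too scarce to place. The netrins thus showed no common direction.

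The Unc5 receptors, dependence receptors that mediate repulsion by netrin, were uneven too. Unc5a was higher, at 8.23 CPM in the PreASKO library (240 counts) and 5.04 CPM in the floxed library (190 counts), a ratio of 1.63 (1.34 to 1.99). Unc5b, the receptor of endothelium, stood at 10.3 CPM in the PreASKO library (301 counts) and 14.2 CPM in the floxed library (534 counts), a ratio of 0.729 (0.630 to 0.841), and Unc5c at 0.651 CPM in the PreASKO library (19 counts) and 1.83 CPM in the floxed library (69 counts), a ratio of 0.356 (0.202 to 0.598). In sum the netrins and Unc5 receptors stood at 36.3 CPM in PreASKO and 47.3 CPM in floxed cells, a ratio of 0.768 (0.711 to 0.829). Without Ntn4 the ratio was 0.952 (0.866 to 1.05), which included 1.

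**Figure D3:**
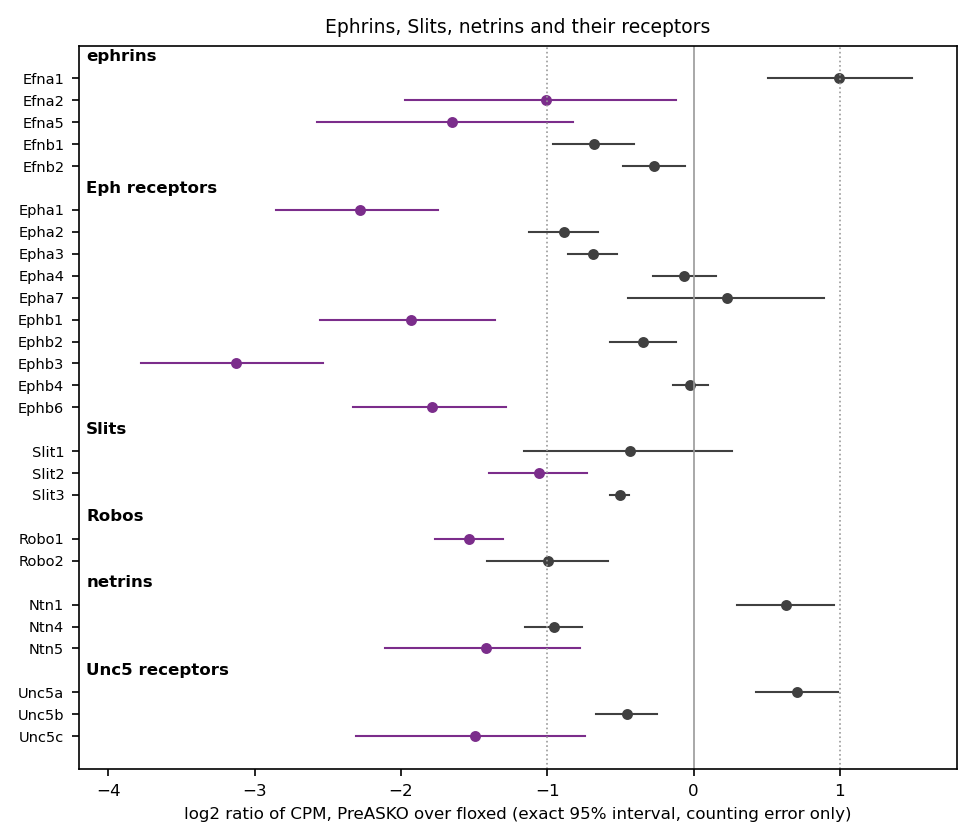
log2 ratio of CPM, PreASKO over floxed, for the 26 ephrin, Eph receptor, Slit, Robo, netrin and Unc5 genes with 40 or more counts over both libraries. Lines are exact 95% intervals of counting error, dotted lines mark the 2-fold limit and purple marks the 10 genes past it, all lower, with Ephb3 the farthest at -3.13. Of all genes with as many counts, 12.1% were more than 2-fold lower.

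By role, ligands and receptors leaned the same way in number. Of 30 ligands with 40 or more counts, 9 were higher and 21 lower, with a median log2 ratio of -0.51. Of the ligands, 9 were more than 2-fold lower, or 30%. Of 26 receptors and co-receptors, 8 were higher and 18 lower, with 6 more than 2-fold lower, or 23.1%, and a median of -0.31. Of all genes, 12.1% were more than 2-fold lower. Ratios were under 1 for 52.2% of all genes, beside 70% of the ligands and 69.2% of the receptors and co-receptors. In summed level they parted, since the receptors stood at 1767 CPM in PreASKO and 1554 CPM in floxed cells and the ligands at 991 CPM in PreASKO and 1029 CPM in floxed cells. The receptor sum is led by Plxnb2 and Plxnd1.

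Other genes of these pathways, taken from a list of co-receptors, further ligands and cytoplasmic partners, were measured for 62 genes, of which 56 had 40 or more counts. Of these, 20 were higher and 36 lower in PreASKO, of which 1 exceeded 2-fold higher and 6 lay under the 2-fold lower limit, with a median log2 ratio of -0.14. The share lower was 64.3%, beside 52.2% of all genes. The share past the lower limit, 10.7%, was below the 12.1% of all genes. Of all genes, 6.29% were more than 2-fold higher. L1cam, an adhesion molecule that serves as a Sema3a co-receptor, was the one higher gene, at 23.3 CPM in the PreASKO library (681 counts) and 10.3 CPM in the floxed library (388 counts), a ratio of 2.27 (2.00 to 2.58). Neogenin (Neo1), a receptor of netrins and repulsive guidance molecules, stood at 95.5 CPM in the PreASKO library (2785 counts) and 176 CPM in the floxed library (6619 counts), a ratio of 0.544 (0.520 to 0.569), and its ligand gene Rgma at 4.63 CPM in the PreASKO library (135 counts) and 12.4 CPM in the floxed library (468 counts), a ratio of 0.373 (0.306 to 0.452). Chl1, a relative of L1cam, had a ratio of 0.323 (0.241 to 0.427) and Dscam, another netrin receptor, one of 0.443 (0.348 to 0.561). Enah, an actin regulator downstream of Robo, had a ratio of 0.467 (0.355 to 0.609).

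Collapsin response mediator proteins carry semaphorin signals to microtubules. Dpysl2 and Dpysl3 of this family had ratios of 0.519 (0.470 to 0.573) and 0.538 (0.488 to 0.593). Dpysl4, with 0 counts in PreASKO and 120 in floxed cells, was 30.9-fold lower with 3 counts in place of the 0 and its ratio was at most 0.0403 by the exact interval. Dpysl5, with 0 counts in PreASKO and 59 in floxed cells, was 15.2-fold lower with 3 counts in place of the 0 and its ratio was at most 0.0834. Robo4, the endothelial Robo, had a ratio of 1.17 (1.08 to 1.27), higher where Robo1 and Robo2 were lower. The blood endothelial markers had a summed ratio of 1.09 (1.08 to 1.11) but split. Of these markers, 5 were higher and 4 lower, with ratios from 0.655 for Tek to 1.70 for Vwf. Ntng2, a membrane-anchored netrin G, had a ratio of 0.663 (0.536 to 0.818), while Ntng1, with 2 counts in PreASKO and 18 in floxed cells, and Unc5cl, with 29 in PreASKO and 3 in floxed cells, were under 40 counts. Cd72, the Sema4d receptor of B cells, had a ratio of 1.48 (1.30 to 1.70). Met, a receptor that couples to plexin B proteins, had a ratio of 0.541 (0.488 to 0.600), and Itga1 and Itgb1, the subunits of a Sema7a receptor, had ratios of 0.526 (0.484 to 0.572) and 1.20 (1.17 to 1.23).

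**Figure D4:**
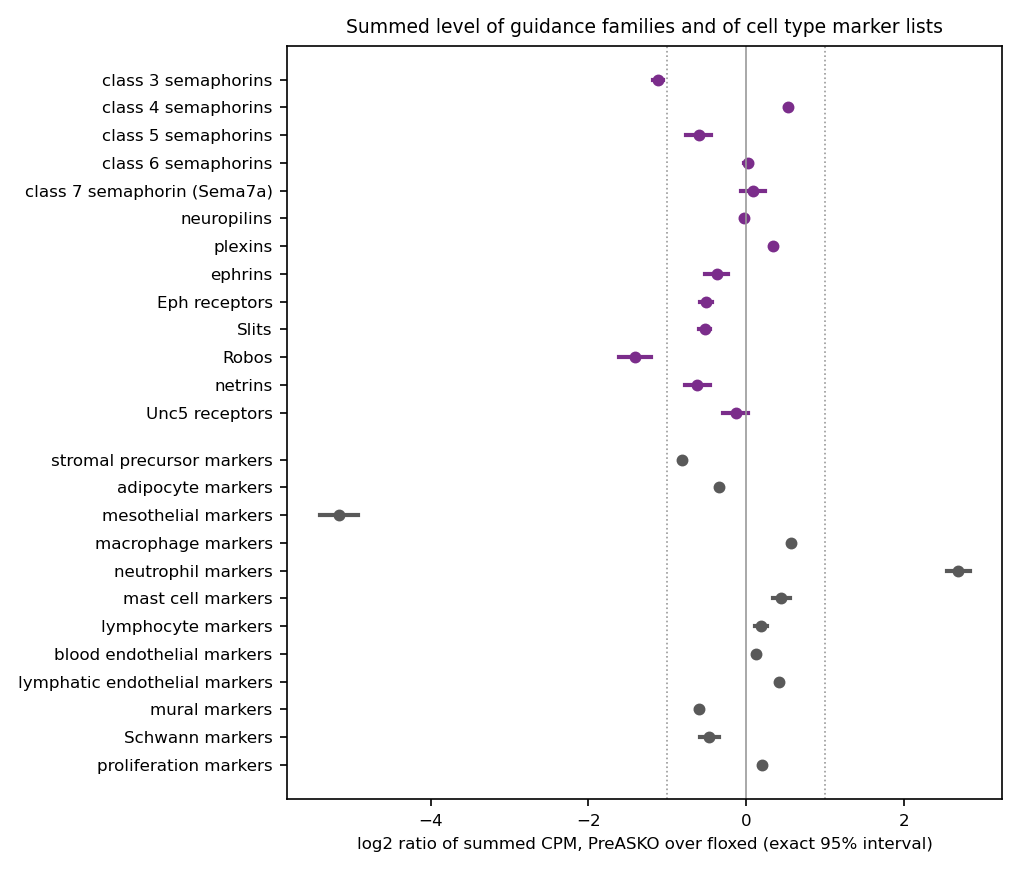
log2 ratio of summed CPM, PreASKO over floxed, for guidance families (purple) and for lists of cell type markers (grey), with exact 95% intervals of counting error and dotted lines at 2-fold. Class 3 semaphorins, at -1.12, lie below the stromal precursor markers, at -0.81, while class 4 semaphorins, at 0.53, lie near the macrophage markers, at 0.57.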

How the data were processed

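PolyA RNA of GFP+ cells was sequenced in 1 PreASKO and 1 floxed library, grouped by the genotype label, and columns were matched by KO and WT in the titles. The authors deposited raw counts per gene and repeat-distributed counts, which are estimated counts, per the file headers, plus a fold ratio of PreASKO over floxed and its log2. The submitters' processing notes name the build mm10. Aligner, counter and strand setting were not given in the sources used here. Repeat-distributed counts make up 50.6% of PreASKO and 49.1% of floxed counts. Of the guidance genes, 13 rest on raw counts and 26 on repeat-distributed counts with no count of the other kind, so how the authors shared reads affects most of them.

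Both counts were summed, rounded and divided by the library total to give CPM. Genes needed 40 counts over both libraries. Ratios have exact conditional (Clopper-Pearson) intervals at 95%, and a 0 was set to a floor of 3 counts, taken per library. The intervals cover counting error of reads only. No molecular identifiers are named, so reads copied from the same molecule could not be told apart. Of the 56 genes past the filter, 39 had over 90% repeat-distributed counts. These are rounded estimates, so intervals on them are approximate. Exon lengths are from GENCODE M21. Coordinates are from RefSeq GRCm38.p6, matched by gene ID, or by symbol where no ID matched, for 64 of 64. Upstream sequences, also from RefSeq GRCm38.p6, were matched by symbol for 56 of the 64. Exons of 15 members overlap a gene on the opposite strand. Python 3.11.15, scipy 1.17.1, pandas 2.3.3, edgeR 4.0.16 and DESeq2 1.42.0 were used, and edgeR and DESeq2 gave only scaling factors. The calculation was tested on simulated data. Alternatives were other scalings, pseudocounts, filters and either kind of count alone. Members and lists were chosen with earlier results of these data known. Full values are given for members past 2-fold and the 3 with most counts of each family, with more members named by level or ratio.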

Additional observations from a re-analysis of the deposited data

How the results depend on the processing

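No paired analysis was possible because there is 1 library per genotype, and for the same reason no replicate could be left out. The count of genes more than 2-fold lower, 15, stayed between 13 and 16 under most settings. It was 8 with a pseudocount of 1 CPM, 7 with at least 200 counts over both libraries and 5 in raw counts alone. Raw counts alone leave 20 genes to count. These were shares of 14.3%, 15.6% and 25% of the guidance genes, against 6.95%, 5.81% and 12.1% of all genes. The 16 with no filter and with 10 counts in either library were 25.8% and 27.1%, against 18.6% and 18.2% of all genes. The count of genes more than 2-fold higher, 0, was 1 under TMM, median-of-ratios and raw counts alone (Efna1) and 1 with no filter or with 10 counts in either library (Epha5). Of all genes, 6.63% to 10.6% were more than 2-fold higher under these settings. The median log2 ratio ran from -0.40 to -0.29 except in raw counts alone, where it was -0.63. For the semaphorin, neuropilin and plexin sum the log2 ratio, 0.18, was 0.20 under TMM, 0.21 under median-of-ratios, 0.22 in repeat-distributed counts alone, 0.12 without Plxnb2 and -0.34 in raw counts alone. For the Slit and Robo sum it was -0.62, and -0.48 in raw counts alone, -1.26 in repeat-distributed counts alone and -1.27 without Slit3. For the ephrin and Eph sum it was -0.48, and -0.67 in raw counts alone and -0.67 without Ephb4. For the netrin and Unc5 sum it was -0.38, and -0.54 in raw counts alone, -0.24 in repeat-distributed counts alone and -0.0703 without Ntn4. Raw and repeat-distributed counts alone hold different genes of each sum. With a pseudocount of 1 CPM, 6 named genes moved toward 0 by more than their counting interval, Ephb3 to -2.19, Epha1 to -1.61, Ephb1 to -1.28, Ephb6 to -1.26, Efna5 to -0.79 and Sema4g to -0.66, and Efna5 and Sema4g no longer exceeded 2-fold. Slit2 had a log2 ratio of -2.43 in raw counts alone and -0.74 in repeat-distributed counts alone, against -1.06. Ephb4 turned from -0.02 to 0.00 under TMM and 0.01 under median-of-ratios, and Sema6d from 0.02 to -0.02 in repeat-distributed counts alone. In the authors' deposited table, the log2 fold had the same sign for 56 of 56 guidance genes and lay within 0.1 of the log2 ratio for 48.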

Other observations

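The stretch of chromosome 5 that holds Sema3a, Sema3c, Sema3d and Sema3e also holds other genes, which were looked at after the values of the semaphorins were seen. Of 14 genes of the stretch with an entry in the table, 3 besides the semaphorins had 40 or more counts over both libraries, and all 3 were lower in PreASKO. Hgf, the ligand of Met, stood at 4.04 CPM in the PreASKO library (118 counts) and 8.91 CPM in the floxed library (336 counts), a ratio of 0.454 (0.365 to 0.561). Cacna2d1, a calcium channel subunit, stood at 9.77 CPM in the PreASKO library (285 counts) and 17.0 CPM in the floxed library (641 counts), a ratio of 0.575 (0.498 to 0.662). Pclo, a scaffold of presynaptic zones, had 0 counts in PreASKO and 55 in floxed cells, with an upper limit of 0.0897 on its ratio by the exact interval. The stretch was set by semaphorins already seen to be lower, so these 3 genes are given as values.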
